A study of Mus musculus with 20 samples.

Results

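A set of 10 transcripts of the mouse oocyte was followed through cleavage. They are the growth factor genes Gdf9 and Bmp15, the egg coat genes Zp1, Zp2 and Zp3, the meiotic kinase gene Mos, and the abundant oocyte transcripts Oosp1, Oosp2, Omt2a and Omt2b. They were taken by gene symbol, as 10 of the 24411 genes listed, by a rule that uses no measured value. The members were, however, chosen with earlier results of these data known. All 10 passed the filter on low counts in each fit.

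RNA was sequenced from 16 pools of 10 mouse embryos, made by in vitro fertilisation of superovulated oocytes and cultured in KSOM medium. In the knockdown experiment, zygotes were electroporated 3 hours after insemination with non-targeting siRNA (siControl) or siRNA against Pcgf5 (siPcgf5), which encodes a Polycomb subunit. Both treatments were sampled 36 hours after insemination (late 2-cell) and again at 72 hours (morula), with 2 libraries in each of the 4 groups. In the knockout experiment, 4-cell embryos collected at 48 hours, for which no electroporation is described, were WT (2 libraries), Hetero KO (3) or Homo KO (3) for the MT2C_Mm repeat, a retroviral long terminal repeat, at Pcgf5. Strain, number of knockout lines and the parents' genotypes are not given in the sources used here. Nothing says that libraries of a group came from separate cultures, so p-values measure only the spread between these libraries.

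A growing oocyte transcribes and stores large amounts of mRNA, falls silent, and passes this store to the embryo. The embryo then removes it while its own genome switches on, partly through shortening of poly(A) tails by the CCR4-NOT complex, which BTG4 recruits. GDF9 and BMP15 are secreted ligands of the TGF-beta superfamily that act on the surrounding granulosa cells, and ZP1, ZP2 and ZP3 are secreted glycoproteins that build the zona pellucida. MOS starts the MAP kinase cascade that holds the egg in metaphase of the second meiotic division. The products of all of these genes serve the oocyte or egg, so their mRNA in a cleaving embryo is usually read as inherited.

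Summed expected counts ran from 14310634 to 55620137 per library, lowest in the 4-cell libraries. At the late 2-cell stage Pcgf5 stood at 397 and 931 TPM in siControl against 59.1 and 103 in siPcgf5, and in morulae at 146 and 99.2 against 24.3 and 19.3. In 4-cell embryos it ran from 254 to 339 TPM in WT, from 248 to 331 in Hetero KO and from 158 to 199 in Homo KO. TPM, deposited for each gene, corrects for transcript length and states a share of the measured mRNA. In pooled embryos, a smaller share of a transcript and a larger amount of other RNA cannot be told apart, nor can fewer cells holding it and less RNA per cell.

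Promoter sequence was read where RefSeq's table (GRCm38.p6) held an entry, which it did for Bmp15, Zp3, Oosp1, Oosp2, Omt2a and Omt2b. The letters CANNTG (an E-box, the kind of site that oocyte factors such as FIGLA bind in zona gene promoters) were searched on both strands in the 250 bases before the start. All 6 promoters held CANNTG, as did 66.2% of 32851 RefSeq promoters. The narrower CAGGTG or its reverse complement CACCTG, which are themselves CANNTG matches, stood in 3 of the 6, against 17.2% of all promoters. The 150 bases before the start are shown for 3 members that recur below, since Zp3 was the best retained and Oosp1 and Omt2b fell early, with CAGGTG or CACCTG in capitals. Zp3 lies at chr5:135979955-135980104 on the plus strand, Oosp1 at chr19:11691052-11691201 on the minus strand and Omt2b at chr9:78327880-78328029 on the plus strand.
Zp3: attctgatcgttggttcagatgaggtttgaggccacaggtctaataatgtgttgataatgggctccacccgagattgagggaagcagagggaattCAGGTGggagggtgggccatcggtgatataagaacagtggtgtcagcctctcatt
Oosp1: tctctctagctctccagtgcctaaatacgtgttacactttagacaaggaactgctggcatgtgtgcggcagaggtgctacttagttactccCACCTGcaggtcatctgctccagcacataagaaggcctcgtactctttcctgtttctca
Omt2b: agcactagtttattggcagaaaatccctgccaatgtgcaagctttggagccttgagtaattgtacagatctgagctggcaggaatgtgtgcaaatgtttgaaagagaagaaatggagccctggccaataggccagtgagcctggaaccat
The match began 55 bases before the start in Zp3 and 59 bases before it in Oosp1. These are matches of letters, shown as a description.

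In the annotation, Omt2a and Omt2b are neighbours on chromosome 9, with 13232 bases between them, and Oosp1 and Oosp2 are neighbours on chromosome 19, with 6900 bases between them. Omt2a and Omt2b are close copies and their expected counts were not all whole, so how their reads were divided is uncertain, and their sum is safer than either value.

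The 10 transcripts held a far larger share of TPM at the late 2-cell stage, mostly through Omt2a and Omt2b, than in the morula. Their summed share of TPM was 7.80% and 4.37% in the siControl libraries and 6.51% and 6.53% in the siPcgf5 libraries at the late 2-cell stage. It was 0.280% to 1.44% over the 8 4-cell libraries, with a median of 0.434%, and 0.00565% to 0.00928% over the 4 morula libraries. The 3 stages did not overlap. Omt2a and Omt2b carried most of the share at the late 2-cell and 4-cell stages, but less than the other 8 in 2 of the 4 morula libraries. Without the pair it was 0.392% to 0.626%, then 0.0378% to 0.0976%, then 0.00191% to 0.00506%.

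**Figure D1:**
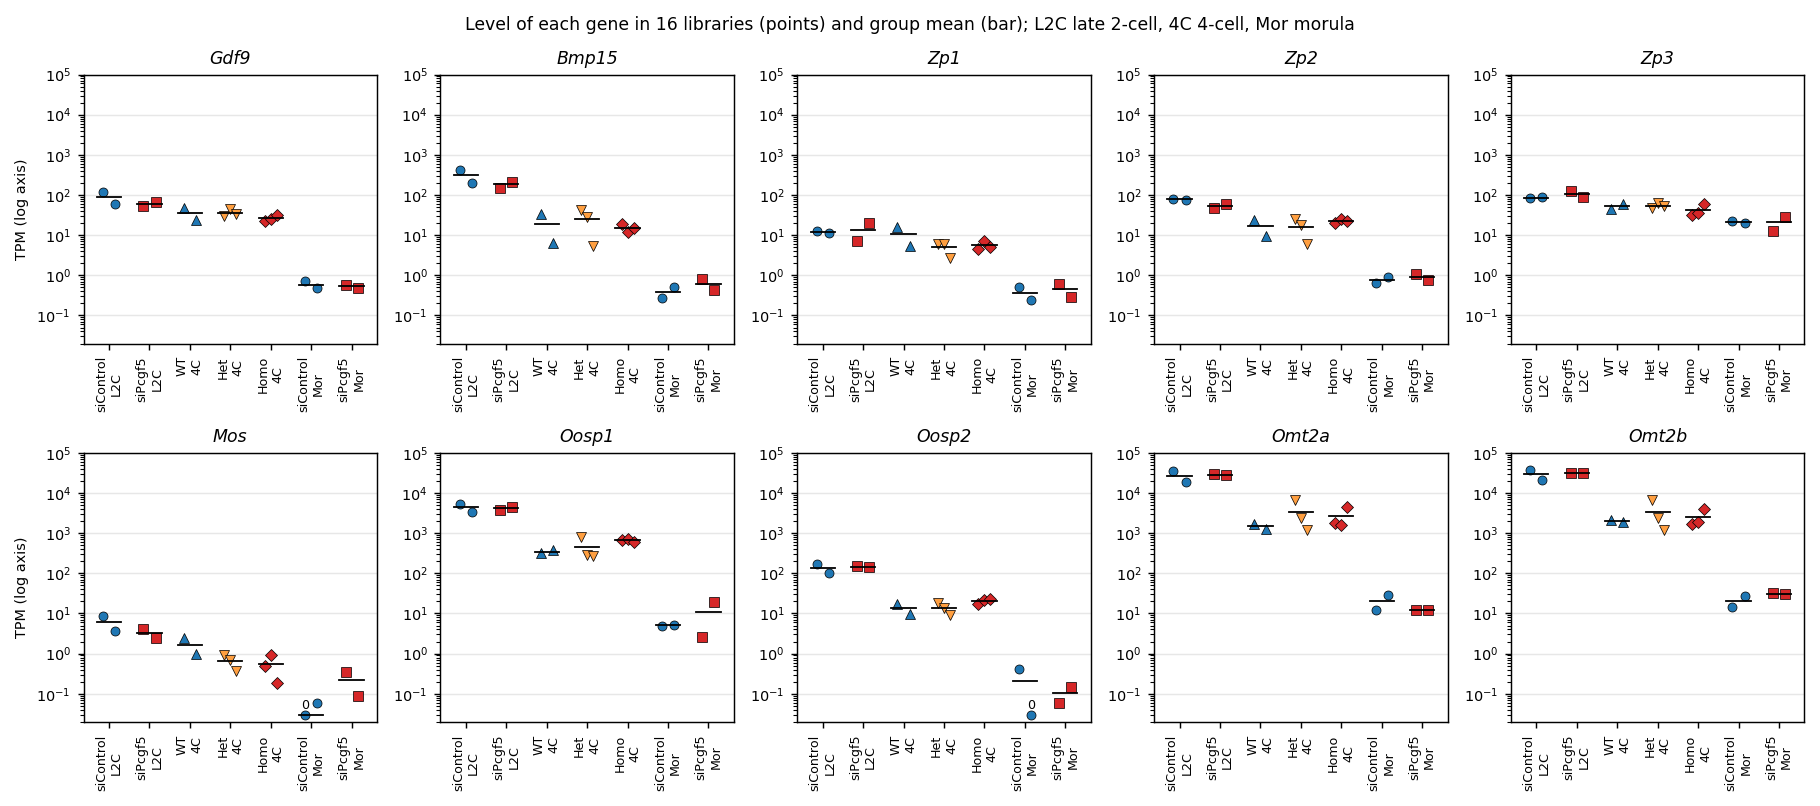
TPM of each gene in each of the 16 libraries on a log axis (points; libraries at 0 are drawn at 0.03 and marked 0), with the mean of each group as a bar. L2C is the late 2-cell stage, 4C the 4-cell stage and Mor the morula; the points for Zp3 descend least across the stages.

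In siControl embryos at the late 2-cell stage, Omt2b was the most abundant member, with a mean of 29136 TPM, and Mos the least, with 6.16 TPM. Between them stood Omt2a at 26626, Oosp1 at 4369, Bmp15 at 315, Oosp2 at 134, Gdf9 at 90.0, Zp3 at 85.2, Zp2 at 78.7 and Zp1 at 12.1 TPM (means of 2 libraries). Neighbours in this order overlapped for Omt2b and Omt2a, for Oosp2 and Gdf9, and for Gdf9 and Zp3. In siControl morulae the order had changed, with Zp3 at 21.1 TPM level with Omt2b at 20.9 and Omt2a at 20.3, whose ranges overlapped.

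The siControl late 2-cell libraries differed from each other. The first held more than the other 3 late 2-cell libraries of 8 members, with Zp1 inside their range and Zp3 below it. For Omt2a, Omt2b, Oosp1 and Oosp2 it was 1.20, 1.16, 1.18 and 1.12 times the next highest. The second siControl library held less of these than either siPcgf5 library. The ratio of the first to the second siControl library was 2.44 for Mos, 2.13 for Bmp15, 2.01 for Gdf9, 1.89 for Omt2a and 1.05 for Zp2. Values without the first are given where it decides a call.

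All 10 members fell from the late 2-cell stage to the morula, in siControl and in siPcgf5 embryos (edgeR's quasi-likelihood test, Benjamini-Hochberg adjusted p under 0.05). Of the 16980 genes tested, 28.1% were lower in siControl morulae and 28.2% in siPcgf5 morulae. The members' median log2 fold change was -7.33 in siControl and -6.68 in siPcgf5, where the median of all genes tested was -0.34 and -0.38. For none of the 10 did the CPM of both stages overlap within a treatment, where 42.4% of all genes were lower without overlap in siControl and 44.4% in siPcgf5.

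Gdf9 and Bmp15, the ligands, fell by different routes. Gdf9 measured 120 and 59.8 TPM in siControl late 2-cell embryos, 53.3 and 65.2 in their siPcgf5 counterparts, 47.1 and 24.3 in WT 4-cell embryos, and 0.71 and 0.47 in siControl morulae. Bmp15 measured 430 and 201 in siControl and 153 and 217 in siPcgf5, then 32.7 and 6.29 in WT 4-cell embryos, and 0.27 and 0.52 in siControl morulae. So Bmp15 was above Gdf9 in each late 2-cell library, below it in both WT 4-cell libraries, and on either side of it in siControl morulae.

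From siControl late 2-cell to WT 4-cell embryos, Bmp15 changed by a log2 of -3.73 (SE 0.899, adjusted p 0.0093) while Gdf9 fell to 49.9% of its level (SE of the log2 fold change 0.328, adjusted p 0.0275), by edgeR over all 16 libraries. The Gdf9 call rested on 1 library of either group: the log2 fold change was -0.55 (adjusted p 0.287) without the first siControl library and -0.71 (adjusted p 0.229) without the second WT library. The Bmp15 change was -3.04 (adjusted p 0.0709) without the second WT library. From WT 4-cell to siControl morula both fell, with log2 fold changes of -5.21 for Gdf9 and -4.90 for Bmp15 (adjusted p 5.39e-07 and 0.0033).

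The ratio of Bmp15 to Gdf9 within a library, which no scaling of libraries can move, put the 2 ligands apart more plainly. It ran from 2.86 to 3.57 over the 4 late 2-cell libraries and from 0.159 to 1.40 over the 8 4-cell libraries, with no overlap. The log2 ratio of Gdf9 to Bmp15 rose by 2.65 (two-sided exact permutation p 0.00202, the smallest that the 495 arrangements allow, adjusted p 0.013 over 90 tests of member pairs). In morulae Bmp15 over Gdf9 was 0.380 to 1.34. Libraries of all treatments and genotypes of a stage were pooled in these ratio tests, which were added after the values had been seen. All late 2-cell libraries are from the knockdown experiment and all 4-cell libraries from the knockout experiment. Stage and experiment therefore cannot be told apart in the ratio tests between these stages.

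**Figure D2:**
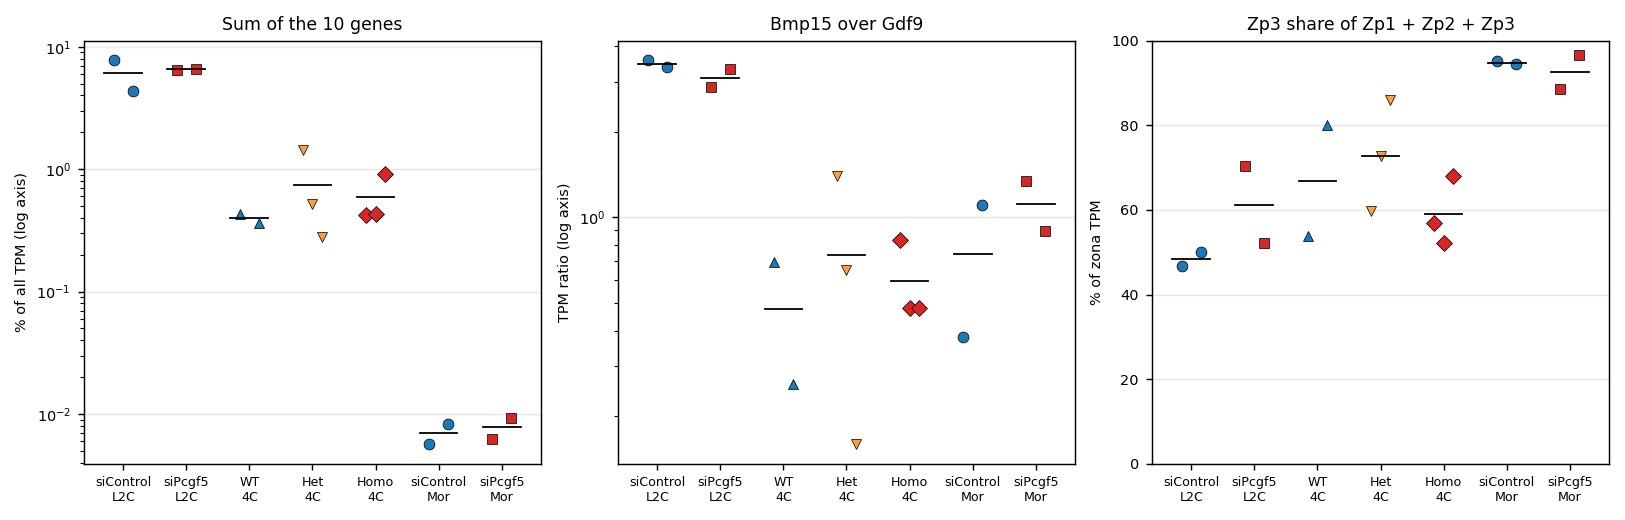
Measures within each library: the summed share of TPM of the 10 genes (log axis), the TPM ratio of Bmp15 to Gdf9 (log axis), and Zp3 as a percentage of the summed TPM of Zp1, Zp2 and Zp3; points are libraries and bars are group means. Every late 2-cell library has a Bmp15 to Gdf9 ratio of at least 2.86, and every morula library a Zp3 share of at least 88.5%.

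The coat genes separated from one another as well. Zp3 measured 82.0 and 88.4 TPM in siControl late 2-cell embryos, 128 and 87.2 in their siPcgf5 counterparts, 45.8 and 59.4 in WT 4-cell embryos, and 22.0 and 20.1 in siControl and 13.0 and 29.1 in siPcgf5 morulae. Zp2 measured 80.7 and 76.8 in siControl and 47.2 and 60.1 in siPcgf5, then 23.6 and 9.37 in WT 4-cell embryos, and 0.63 and 0.92 in siControl morulae. Each late 2-cell library had more Zp3 than Zp2, at like levels in siControl and with a wider gap in siPcgf5. In the siControl morula Zp3 stood at 24.7% of its siControl late 2-cell mean TPM where Zp2 stood at 0.984%.

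Zp1 was low throughout. It measured 13.1 and 11.1 TPM in siControl late 2-cell embryos, 7.11 and 19.6 in their siPcgf5 counterparts, 15.8 and 5.37 in WT 4-cell embryos, and 0.50 and 0.24 in siControl morulae. The WT 4-cell libraries spanned the siControl late 2-cell values.

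By edgeR, Zp2 fell from siControl late 2-cell to WT 4-cell embryos by 1.96 on the log2 scale (SE 0.464, adjusted p 0.00435). Zp1 at 0.10 (SE 0.579, adjusted p 0.917), whose sign turned with DESeq2 size factors and with limma on log2(TPM + 1), and Zp3 at -0.33 (SE 0.370, adjusted p 0.51) did not pass. Without the second WT library, Zp2 stood at -1.54 (adjusted p 0.063). From WT 4-cell to siControl morula, Zp1 and Zp2 fell (-4.10 and -3.70), while Zp3 at -0.67 (SE 0.371, adjusted p 0.186) did not pass; limma on log2(TPM + 1) did call Zp3, at -1.27 (adjusted p 0.0119).

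Over the whole span, the log2 fold change of Zp3 was -0.99 in siControl (SE 0.369, adjusted p 0.0425) and -1.48 in siPcgf5 (SE 0.373, adjusted p 0.0069). The siControl call was lost when any 1 of the 4 siControl libraries was left out (-0.91 to -1.10, adjusted p 0.0667 to 0.162), and the siPcgf5 call without the first siPcgf5 late 2-cell library (-1.15, adjusted p 0.0542). The size also depended on the scale, since TMM scaling placed Zp3 higher in the morula than TPM did. The median over genes of the change in log2 fold change was -0.78 on going to limma on log2(TPM + 1) and -0.17 with DESeq2 size factors, and Zp3 kept its direction under both.

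Within libraries the difference among coat genes did not depend on that scaling. The log2 ratio of Zp2 to Zp3 fell by 3.90 and that of Zp1 to Zp3 by 2.41 from late 2-cell to morula (each two-sided exact permutation p 0.0286, the smallest that 70 arrangements allow, adjusted p 0.0443). No pair passed over this span with a late 2-cell library left out (smallest adjusted p 0.0504 to 0.0547 by the exact permutation test). Zp3 was 46.7% to 70.3% of zona TPM at the late 2-cell stage, 52.1% to 86.0% at the 4-cell stage and 88.5% to 96.5% in morulae. The ratio of Zp3 to each of the other members but Mos had changed by the morula, in favour of Zp3 in each case.

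Mos was the rarest member at the late 2-cell and 4-cell stages. It measured 8.73 and 3.58 TPM in siControl late 2-cell embryos, 4.22 and 2.46 in their siPcgf5 counterparts, and 2.39 and 0.96 in WT 4-cell embryos. In morulae it rested on 0 and 4 counts in siControl and 16 and 6 in siPcgf5. The fitted log2 fold change from late 2-cell to morula was -6.45 in siControl (SE 1.26, adjusted p 0.00149) and -3.14 in siPcgf5 (SE 1.04, adjusted p 0.0264); with so few counts its size depends on the prior count. In siPcgf5 the call was lost without the first late 2-cell library (-2.66, adjusted p 0.115) or the second morula library (-2.45, adjusted p 0.145). The step to WT 4-cell embryos was -1.55 (SE 1.12, adjusted p 0.295).

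The Oosp and Omt2 genes, whose products are secreted or of little known function, fell early and far. Oosp1 measured 5359 and 3379 TPM in siControl late 2-cell embryos, 3698 and 4527 in their siPcgf5 counterparts, 318 and 378 in WT 4-cell embryos, and 4.88 and 5.27 in siControl and 2.63 and 19.3 in siPcgf5 morulae. Oosp2, its neighbour, measured 167 and 100 in siControl, 149 and 145 in siPcgf5, and 16.9 and 9.84 in WT 4-cell embryos, and rested on 0 to 10 counts in each morula library. The level of both in each WT 4-cell library was below that in every late 2-cell library.

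Omt2a measured 34831 and 18421 TPM in siControl late 2-cell embryos, 28916 and 28325 in their siPcgf5 counterparts, 1705 and 1236 in WT 4-cell embryos, and 12.2 and 28.3 in siControl morulae. Omt2b measured 36910 and 21362 in siControl, 31917 and 31901 in siPcgf5, 2118 and 1888 in WT 4-cell embryos, and 14.8 and 27.0 in siControl morulae. The pair moved together: Omt2a was 46.3% to 48.6% of their summed TPM at the late 2-cell stage and 39.6% to 53.7% at the 4-cell stage. In siPcgf5 morulae it was 27.2% and 28.5%, against 45.2% and 51.2% in siControl morulae, where the division of reads between the copies is uncertain.

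To WT 4-cell embryos, Oosp1 fell by 3.29 (SE 0.777, adjusted p 0.00822), Oosp2 by 3.01 (SE 0.612, adjusted p 0.00145), Omt2a by 3.86 (SE 0.787, adjusted p 0.00359) and Omt2b by 3.52 (SE 0.693, adjusted p 0.00274) on the log2 scale by edgeR. To the siControl morula they fell by a further 5.42, 5.19, 5.47 and 5.87. Over the whole span the siControl changes were -8.69, -8.21, -9.32 and -9.38, and the siPcgf5 changes -7.63, -9.42, -10.27 and -9.13. In the step to WT 4-cell embryos, the Oosp1 call was lost without either WT library (-3.10 and -3.57). The Omt2a call was lost without the second WT library (-3.77).

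In all, 7 of the 10 members fell between siControl late 2-cell and WT 4-cell embryos, where 15.2% of the 16669 genes tested were lower, and 9 between WT 4-cell embryos and siControl morulae, where 15.3% were lower. The members' median was -2.48 and -5.04, against -0.33 and 0 for all genes tested. Only 2 members were called in the first step without the second WT library. Both steps cross the experiments, so stage cannot be told apart in them from electroporation or any other difference between the experiments.

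**Figure D3:**
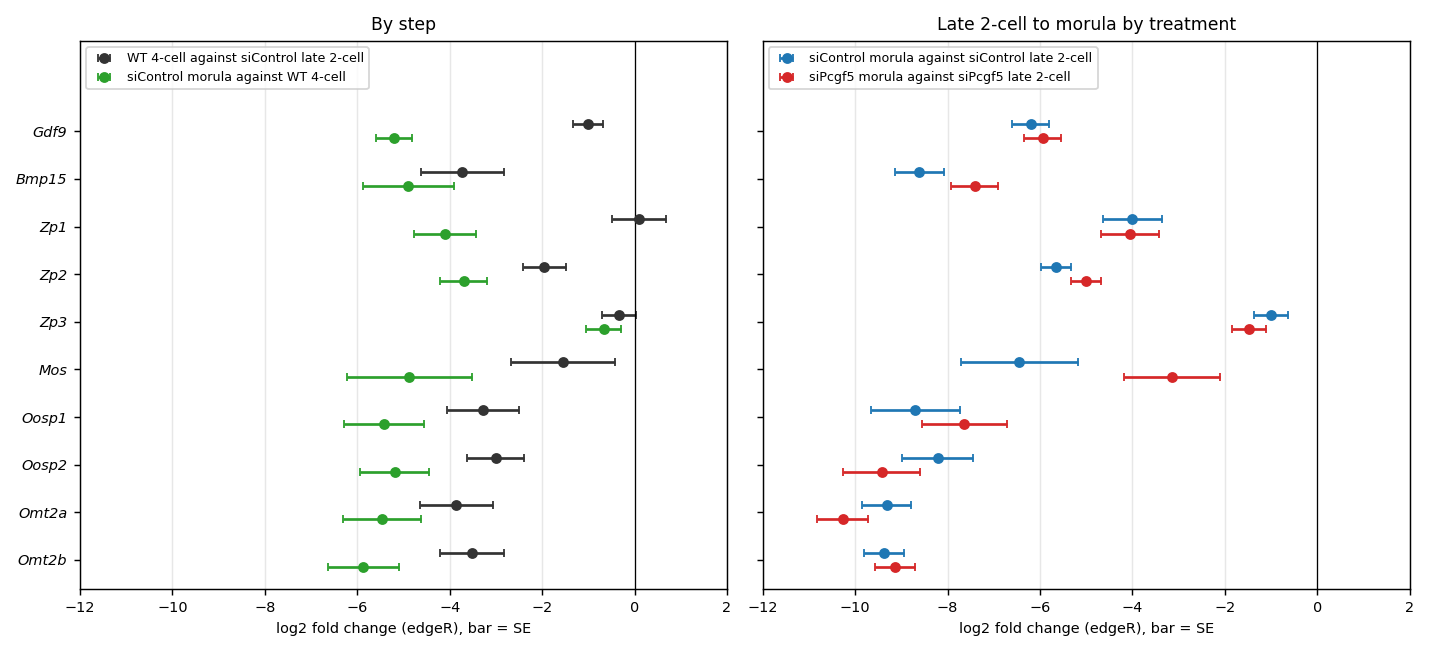
Log2 fold change of each gene (edgeR; bars are SE) for the steps from siControl late 2-cell to WT 4-cell and from WT 4-cell to siControl morula (left), and for late 2-cell to morula within each treatment (right). Bmp15, Oosp1, Oosp2, Omt2a and Omt2b lie at -3.01 or lower in the first step, while Zp1 and Zp3 lie near 0.

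Ratios between members sorted the first step, in which stage and experiment cannot be told apart. Of 45 pairs, the ratio of 23 differed between the 4 late 2-cell and the 8 4-cell libraries (two-sided exact permutation, adjusted p under 0.05 over 90 tests), and the pairs share members. Bmp15, Oosp1, Oosp2, Omt2a and Omt2b each lost ground to Gdf9, Zp1, Zp2 and Zp3, without exception, and no ratio among those 5 passed. For example, Oosp2 to Omt2b differed by 0.52 (adjusted p 0.198) while Zp1 to Omt2b rose by 2.67 (adjusted p 0.013). The number of pairs was 15 without the first siControl late 2-cell library and 14 without the first siPcgf5 late 2-cell library. By the morula, 35 of 45 pairs differed from the late 2-cell stage, each at the smallest p that 4 against 4 libraries allow. With any late 2-cell library left out, 0 passed: 27 or 28 pairs had an unadjusted p under 0.05, and the smallest adjusted p was 0.0504 to 0.0547.

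No member passed the test for knockdown of Pcgf5. At the late 2-cell stage 0 of 10 passed by edgeR, where 2 genes (0.0118%) passed in all, 947 had an unadjusted p under 0.05 and DESeq2 called 27 higher and 45 lower. Zp2 had the log2 fold change -0.45 (SE 0.265) and Zp3 0.46 (SE 0.366), and the TMM-scaled CPM (a read count over the library's total) of the groups did not overlap for either, as for 31.2% of all genes. Bmp15 was -0.64 (SE 0.376) and Gdf9 -0.47 (SE 0.316), each overlapping. The first siControl library was the highest of the 4 for both ligands, and 0 members passed without it.

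In morulae 0 of 10 members passed, and 0 of all genes (0%), with 716 at an unadjusted p under 0.05 by edgeR and DESeq2 calling 5 higher and 18 lower. Mos was 2.57 (SE 1.20, edgeR unadjusted p 0.0571) on the 0 to 16 counts above. Oosp1 was 1.11 (SE 0.725), Omt2a -0.71 (SE 0.379) and Omt2b 0.53 (SE 0.308). The difference between the effects at the 2 stages passed for 0 members and 0 genes (0%; 842 at an unadjusted p under 0.05 by edgeR, and 18 higher and 14 lower by DESeq2), with Mos at 3.30 (SE 1.52) and Bmp15 at 1.20 (SE 0.577).

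No member passed for deletion of the repeat at the 4-cell stage either, where pools differed widely. Over the 8 libraries the highest level was 12.6 times the lowest for Mos, 7.70 for Bmp15, 5.70 for Zp1, 5.60 for Omt2b, 5.48 for Omt2a, 4.20 for Zp2, 3.04 for Oosp1, 2.41 for Oosp2, 2.04 for Gdf9 and 1.94 for Zp3. Oosp1 measured 807, 279 and 266 TPM in Hetero KO, against 667, 708 and 619 in Homo KO. Bmp15 measured 42.0, 28.9 and 5.45 in Hetero KO, against 19.2, 12.3 and 14.9 in Homo KO. Hetero KO libraries therefore spanned the Homo KO values of both genes.

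In Homo KO against WT, 0 members and 0 genes (0%) passed by edgeR, with 1701 genes at an unadjusted p under 0.05 and DESeq2 calling 237 higher and 96 lower. Oosp1 was 0.94 (SE 0.431, adjusted p 0.417) and Oosp2 0.66 (SE 0.459, adjusted p 0.583), both above WT in each library. Omt2a was 0.84 (SE 0.730), above WT in each library by CPM but overlapping WT in TPM. Mos was -1.55 (SE 1.11) and below WT in each. Homo KO and WT did not overlap in CPM for 30.4% of all genes. In Hetero KO against WT 0 members and 0 genes (0%) passed by edgeR, with 655 at an unadjusted p under 0.05 and DESeq2 calling 6 higher and 1 lower, and Zp1 was -1.05 (SE 0.482, adjusted p 0.945). In Homo KO against Hetero KO 0 members and 0 genes (0%) passed by edgeR, with 1131 at an unadjusted p under 0.05 and DESeq2 calling 89 higher and 22 lower, and Oosp2 was 0.62 (SE 0.405). Summed TPM of late 2-cell markers such as Zscan4c ran from 22.5 to 285 in WT, 66.1 to 180 in Hetero KO and 261 to 396 in Homo KO, and their part in these values was not tested.

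**Figure D4:**
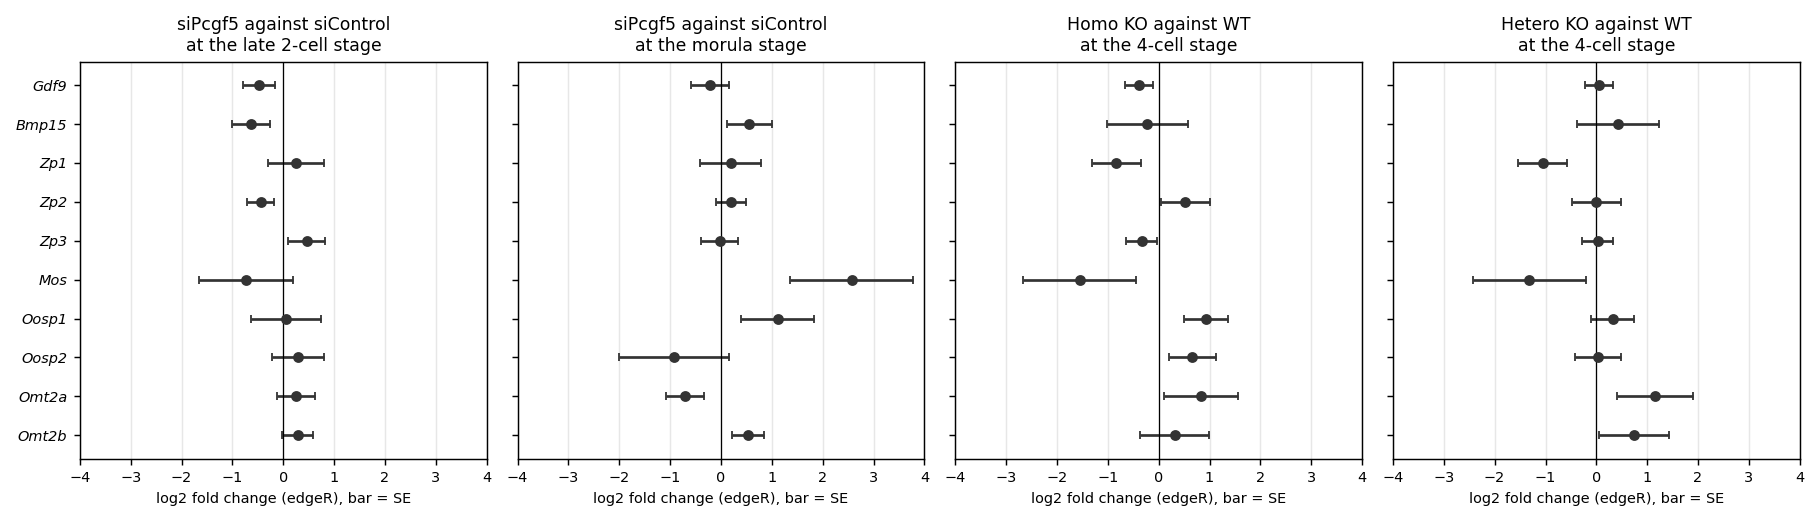
Log2 fold change of each gene (edgeR; bars are SE) in the comparisons of siPcgf5 with siControl at each stage and of Homo KO and Hetero KO with WT at the 4-cell stage. None passed the adjusted threshold, and the widest bars belong to Mos.

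Genes around these members did not all move as they did. Of all 16980 genes tested, 28.1% were lower and 24.9% higher in siControl morulae than at the late 2-cell stage. Of 17 genes of mRNA storage and clearance, 10 were lower and 2 higher in siControl morulae than at the late 2-cell stage. Btg4, the CCR4-NOT adaptor, went from 2577 and 555 TPM to 0.49 and 1.24 (log2 fold change -9.75, adjusted p 2.15e-05), and Cnot7, a deadenylase of that complex, from 686 to 53.5. Ythdf2, a reader of methylated mRNA, was higher at 0.73 on the log2 scale (adjusted p 0.027) though its TPM was 60.3 and 50.2, so its direction turned with the scale. Of 8 genes of the subcortical maternal complex, 6 were lower and 1 higher, with Zbed3 at -6.85, Nlrp4f at -7.43 and Ooep at -1.61.

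Of 7 egg surface genes, 4 were lower and 1 higher. Oosp3, a relative of Oosp1 and Oosp2, fell from 1172 to 1.10 TPM (edgeR adjusted p 5.6e-07), while Cd9, needed for sperm-egg fusion, rose by 2.89, from 370 to 1342. Plac1 was at -2.04. Of 15 receptors and mediators of GDF9 and BMP15, 5 were lower and 3 higher: Bmpr2, the receptor of both ligands, fell by 2.51 and Smad2 was higher by 1.11. Bmpr1a was higher at 0.75 though its TPM was lower, with means of 10.5 and 8.77, so its direction also turned with the scale. Of 16 genes of the MOS pathway, 5 (31.2%) were lower and 7 (43.8%) higher, with Cdc20 at 1.17 by edgeR (mean TPM of 129 and 143). Cdk1 at 0.42 (adjusted p 0.182) and Ccnb1 at 0.29 (adjusted p 0.292) did not pass, and their TPM was lower in morulae, from 340 to 229 and from 1782 to 1093. Of 8 oocyte transcription factors, 5 were lower and 1 higher. Among them Figla went from 17.7 TPM in siControl late 2-cell embryos to 1.99 in WT 4-cell embryos and 2.58 in siControl morulae. Taf4b was at -0.64 (adjusted p 0.0667), and Nobox went from 9.70 and 4.25 TPM to being listed at 0.

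Other genes were ranked by likeness of profile to the members' mean log2 CPM over the 16 libraries, leaving out predicted or provisional symbols. The 5 nearest with a mean of at least 10 CPM were Umodl1 (Pearson r 0.996), Tctex1d1 (0.995), Rcan3 (0.994), Siah2 (0.994) and Glcci1 (0.993). Umodl1 measured 138 and 82.7 TPM in siControl late 2-cell embryos, 15.9 and 4.94 in WT 4-cell embryos, and 0.08 and 0.15 in siControl morulae. These correlations describe 16 libraries that differ mainly by stage, and carry no test. Among the members, each of which is itself part of that mean, r was lowest for Zp3 at 0.727 and highest for Omt2b at 0.994.

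Markers of other cells were read beside the members. The 12 cumulus and granulosa markers, whose cells surround the egg, summed to 27.4 to 52.7 TPM at the late 2-cell stage, 18.7 to 61.1 at the 4-cell stage and 71.8 to 87.5 in morulae, with Amh at 0 in all 16. The sum was highest in morulae through Gja1, a gap junction gene, which was higher by 4.57 on the log2 scale in siControl morulae than at the late 2-cell stage (edgeR adjusted p 4.14e-05). Of the 6 markers tested, 4 were lower, as the members were, where 28.1% of all genes tested were lower. They were Tnfaip6, Cyp19a1, Has2 and Ptgs2, with 18.7, 1.31, 0.872 and 2.78 CPM in siControl late 2-cell embryos. Of the 6 blood markers, Hbb-bs and Hbb-bt were at 0 in all 16. The 6 summed to 1081 to 1447 TPM at the late 2-cell stage and 35.0 to 86.0 in morulae. In 4-cell embryos the sum was 66.7 to 185 in WT, 63.5 to 175 in Hetero KO and 206 to 305 in Homo KO. Hba-a2 changed by -3.79 from siControl late 2-cell embryos to siControl morulae (edgeR adjusted p 3.69e-06). The 7 sperm markers summed to 52.9 to 77.9 TPM at the late 2-cell stage, 4.97 to 10.4 at the 4-cell stage and 1.97 to 3.83 in morulae, and Tnp1 (-4.10) and Prm2 (-3.13) were lower of 4 tested. The part of these markers in the members' decline was not tested.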

How the data were processed

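The deposited files give, per the file headers, an RSEM expected count for each gene, which the authors did not normalise, and TPM, which RSEM scaled to a common total per library. Per the submitters' processing notes, which give no roles, the build was mm10 and the tools were RSEM 1.3.3, STAR 2.7.10, deepTools and Bowtie2 2.4.5. Chromatin libraries were not analysed here.

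Expected counts were rounded, kept by filterByExpr (minimum count 10), given TMM factors and compared by edgeR 4.0.16 (robust quasi-likelihood fit, two-sided, R 4.3.3), with Benjamini-Hochberg adjustment over all genes and a threshold of 0.05. The knockdown libraries, the 4-cell libraries and all 16 together were fitted separately, with 16980, 13766 and 16669 genes. On simulated data for siControl morula against late 2-cell (16980 genes), 60% of genes changed by a log2 of 2 and 86% of those changed by 4 were recovered. A log2 of 1 was recovered in 8% of genes there, and in 8% for Homo KO against WT (13766 genes). Small changes would therefore mostly be missed. For WT 4-cell against siControl late 2-cell (16669 genes), recovery was 4% at a log2 of 1, 52% at 2 and 70% at 4. Low values are read against counting error alone, and the labels name no molecular identifiers against PCR copies. Chi-square distances within groups found no replicate deposited in duplicate.

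Ratios of member pairs used log2(TPM + 0.1) and exact permutation tests, and were chosen after the values had been seen. The members and gene lists were chosen with earlier results of these data known. Named genes are the members, the 3 genes of each list with the highest siControl late 2-cell TPM, and Pcgf5. The 5 genes of the nearest profile are also named (mean of at least 10 CPM, predicted or provisional symbols left out). Alternatives were DESeq2 size factors, no filter, DESeq2 1.42.0, limma 3.58.1 on log2(TPM + 1), only the groups compared, a replicate block, and leaving out each library. Positions come from RefSeq's table for GRCm38.p6, which held 23194 of the 24411 symbols.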

Additional observations from a re-analysis of the deposited data

How the results depend on the processing

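Leaving out 1 library at a time, the members called ran from 9 to 10 for siControl morula against late 2-cell, from 8 to 10 for siPcgf5, from 2 to 7 for WT 4-cell against siControl late 2-cell and from 8 to 9 for siControl morula against WT 4-cell. They were 0 in each leave-out, and under every other alternative run, for the knockdown and knockout comparisons. Leave-outs gave 14 to 26 changed pair ratios to the 4-cell stage and 0 to 36 to the morula; the 0 came with each late 2-cell library left out, where fewer of the 90 tests had a small p and the smallest adjusted p was 0.0504 to 0.0547 (exact permutation test). A pseudocount of 1 TPM gave 26 and 37 pairs. Leave-outs and this pseudocount for the ratios were chosen after seeing the data. With a replicate block the siControl stage comparison called 9 members, losing Zp3 (-0.98, adjusted p 0.0552), and the block changed no other call of a member. Each gene's deviation from its group mean (log2 CPM) was correlated between same-numbered libraries of different groups. The correlation was -0.0378 to 0.00701 in the knockdown and -0.129 to 0.168 in the knockout. These values gave no clear sign of pairing by number, but they cannot show that same-numbered libraries were prepared apart.

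Of 1548 refitted member values, 72 changed sign with no call in either fit, 18 kept their direction and lost their call, and 2 gained one by limma: Zp3, given above, and Mos in WT 4-cell against siControl late 2-cell (-1.37, adjusted p 0.0109). The losses beyond those given above were of Gdf9 and Mos. Gdf9 lost its call in WT 4-cell against siControl late 2-cell with only those groups fitted (-1.04). Mos in siControl morula against WT 4-cell lost its call without the first siControl morula library (-3.90) or the first WT library (-4.21). Where a left-out library leaves 1 in a group, that library is assumed to vary like the others. The split of all genes moved with the method. For siControl morula against late 2-cell it was 4766 lower and 4220 higher by edgeR. DESeq2 size factors in the edgeR fit gave 5167 and 3848. By limma on log2(TPM + 1), which changes the model as well as the scaling, it was 7388 and 2452. By edgeR, siPcgf5 had 4787 and 4162, but 6846 and 2558 by limma. WT 4-cell against siControl late 2-cell had 2526 and 2916 by edgeR but 5225 and 2388 by limma. For siControl morula against WT 4-cell these were 2550 and 2492 but 3622 and 1678. Low counts limit Mos and Oosp2 in morulae.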
